A study of Mus musculus with 5 samples.

Results

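The iron storage and transport genes described here are Trf, Tfrc, Fth1, Ftl1, Pcbp1 and Ireb2, chosen by name as the rows of the expression matrix for the main carrier, receptor, storage, chaperone and sensor proteins of cellular iron. All 6 were among the 11733 genes of the matrix. The cells came from the corpus callosum of healthy P60 mice that carried Emx1::Cre together with Sox10::Cre-LoxP-GFP-STOP-TdTom, with Cre hemizygous, on a mixed CBA and C57BL/6 background. Tissue of 2 mice was pooled, dissociated and sorted into a TdTom+ library (dorsally derived cells, 1901 cells) and a GFP+ library (ventrally derived cells, 952 cells) of the oligodendrocyte (OL) lineage, in which Sox10 is active, while Emx1 marks the dorsal forebrain. The cells carry 12 labels from the study's clustering, from oligodendrocyte progenitor cells (OPC) and committed or newly formed oligodendrocytes (COP/NFOL) through myelin forming (MFOL) to mature oligodendrocytes (MOL). The 3 spinal cord samples of the series were not analysed here. With 1 library per origin nothing could be tested, and since the labels were made from the same cells, differences between labels are descriptions.

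Levels are unique molecular identifiers (UMIs, 1 per captured transcript) per 1000000 UMIs of the same cells (CPM). These are 3′ counts, which do not grow with transcript length. The TdTom+ library held 7129294 UMIs and the GFP+ library 3584940, with medians of 3340 and 3307 UMIs per cell. Intervals are exact at 95% and cover counting error only, not the spread between cells or differences between mice, sorts or preparations. They are too narrow where cells of a label differ more than counting error. 1 cell barcode was found in both libraries. All 6 oligodendrocyte markers checked were detected in both libraries. Microglial markers (6 of 8 measured) had 91 UMIs in the TdTom+ library, 84 of them in a single cell labelled MFOL2, and 2 UMIs in the GFP+ library, where C1qa, Cx3cr1, Csf1r and Aif1 were at 0. Of the 5 endothelial markers Cldn5 and Flt1 were at 0 in both libraries. The astrocyte list (8 of 8 measured) summed to 239 and 238 CPM and the neuronal list (6 of 7) to 24.4 and 38.8 CPM. In OPC alone the astrocyte list summed to 1296 and 1277 CPM and the neuronal list to 922 and 1177 CPM, with 0 microglial and 0 endothelial UMIs. The MOL2/4 cells held 0 microglial and 0 neuronal UMIs. Their astrocyte list summed to 285 and 183 CPM and their endothelial list to 0 and 13.7 CPM.

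Iron circulates bound to transferrin (Trf), which binds the transferrin receptor (Tfrc) on the cell surface and is taken up with it. In the brain Trf is made mainly by oligodendrocytes, the cells with the highest iron content, and it is a standard marker of their maturation. Within the cell Pcbp1 is a chaperone that hands iron to ferritin, a shell built of heavy (Fth1, the subunit with ferroxidase activity) and light (Ftl1, the subunit that favours mineral formation) chains. Ireb2 encodes iron regulatory protein IRP2, which in iron poor cells binds a hairpin, the iron responsive element, in these transcripts and thereby blocks translation of ferritin and stabilises the Tfrc messenger. RNA counts therefore do not give the amount of ferritin or receptor protein.

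The hairpins are printed because they are the sequence feature that divides the members into those with and those without such a site. The longest protein coding transcript with a complete coding sequence (GENCODE vM21, build GRCm38) of each gene was searched on its own strand for a C, 5 bases, the loop CAGTGN with a last base other than G, and 5 bases that pair with the first 5, with G-T pairs allowed and overlapping matches kept. A match stood in the 5′ UTR of Fth1 (chr19:9982733-9982760, plus strand) and of Ftl1 (chr7:45459779-45459806, minus strand), and 4 stood in the 3′ UTR of Tfrc, at chr16:32631220-32631247, chr16:32631599-32631626, chr16:32631664-32631691 and chr16:32631711-32631738, all on the plus strand. Each is given 5′ to 3′ with the 6 loop bases in capitals.
Fth1 hairpin: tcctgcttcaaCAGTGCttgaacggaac
Ftl1 hairpin: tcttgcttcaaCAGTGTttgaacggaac
Tfrc hairpin 1: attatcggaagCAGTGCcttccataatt
Tfrc hairpin 2: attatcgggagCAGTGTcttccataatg
Tfrc hairpin 3: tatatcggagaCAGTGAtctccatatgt
Tfrc hairpin 4: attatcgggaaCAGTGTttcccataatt
Such a match is in the 5′ UTR of 17 of 20261 genes (0.0839%) and in the 3′ UTR of 91 of 20828 (0.437%), and Tfrc was the only one of these with at least 4. None was found in the searched transcripts of Trf, Pcbp1 and Ireb2, which says only that these letters are not in them.

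Of the other positions, Trf lies at chr9:103204001-103230444 on the minus strand, Pcbp1 at chr6:86524492-86526321 on the minus strand and Ireb2 at chr9:54863789-54912530 on the plus strand. Trf overlaps Gm20425 and Ftl1 overlaps Gm22133 on the same strand, so reads of these pairs may not be told apart. GENCODE names 5 copies of the ferritin genes (Fth-ps2, Fth-ps3, Ftl1-ps1, Ftl1-ps2 and Ftl2-ps), which were not analysed here. How reads that match a copy equally well were counted is not given in the sources used here, so the ferritin levels are uncertain to that extent.

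Fth1 was the most abundant of the members, and Trf and Ftl1 followed at a lower level, whereas Tfrc and Ireb2 were near the limit of detection. Over all cells Fth1 stood at 34696 CPM in TdTom+ and 34555 CPM in GFP+ cells. In the same order Trf stood at 2635 and 3132 CPM, and Ftl1 at 1656 and 1638 CPM. Only these 3 and Pcbp1 had a mean of at least 50 CPM, the level set for counting genes. Pcbp1 stood at 145 and 134 CPM, Tfrc at 23.1 and 19.0 CPM from 165 and 68 UMIs, and Ireb2 at 18.1 and 16.2 CPM from 129 and 58 UMIs. At a common depth of 2400 UMIs per cell, reached by all but 150 TdTom+ and 74 GFP+ cells, the share of cells with a UMI was compared. Fth1 was found in 99.9% and 99.8% of cells, Ftl1 in 96.5% and 95.9%, and Trf in 95.4% and 95.2%. Pcbp1 was found in 27.9% (interval 25.8 to 30.1%) of the TdTom+ and 24.7% (21.9 to 27.7%) of the GFP+ cells, the largest gap among the members, with intervals that overlap (38.5% and 37.1% without thinning, and 7.15% and 7.25% at 500 UMIs per cell, where the direction turned). Tfrc was found in 5.37% and 4.44% of thinned cells and Ireb2 in 4.45% and 3.64%.

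**Figure D1:**
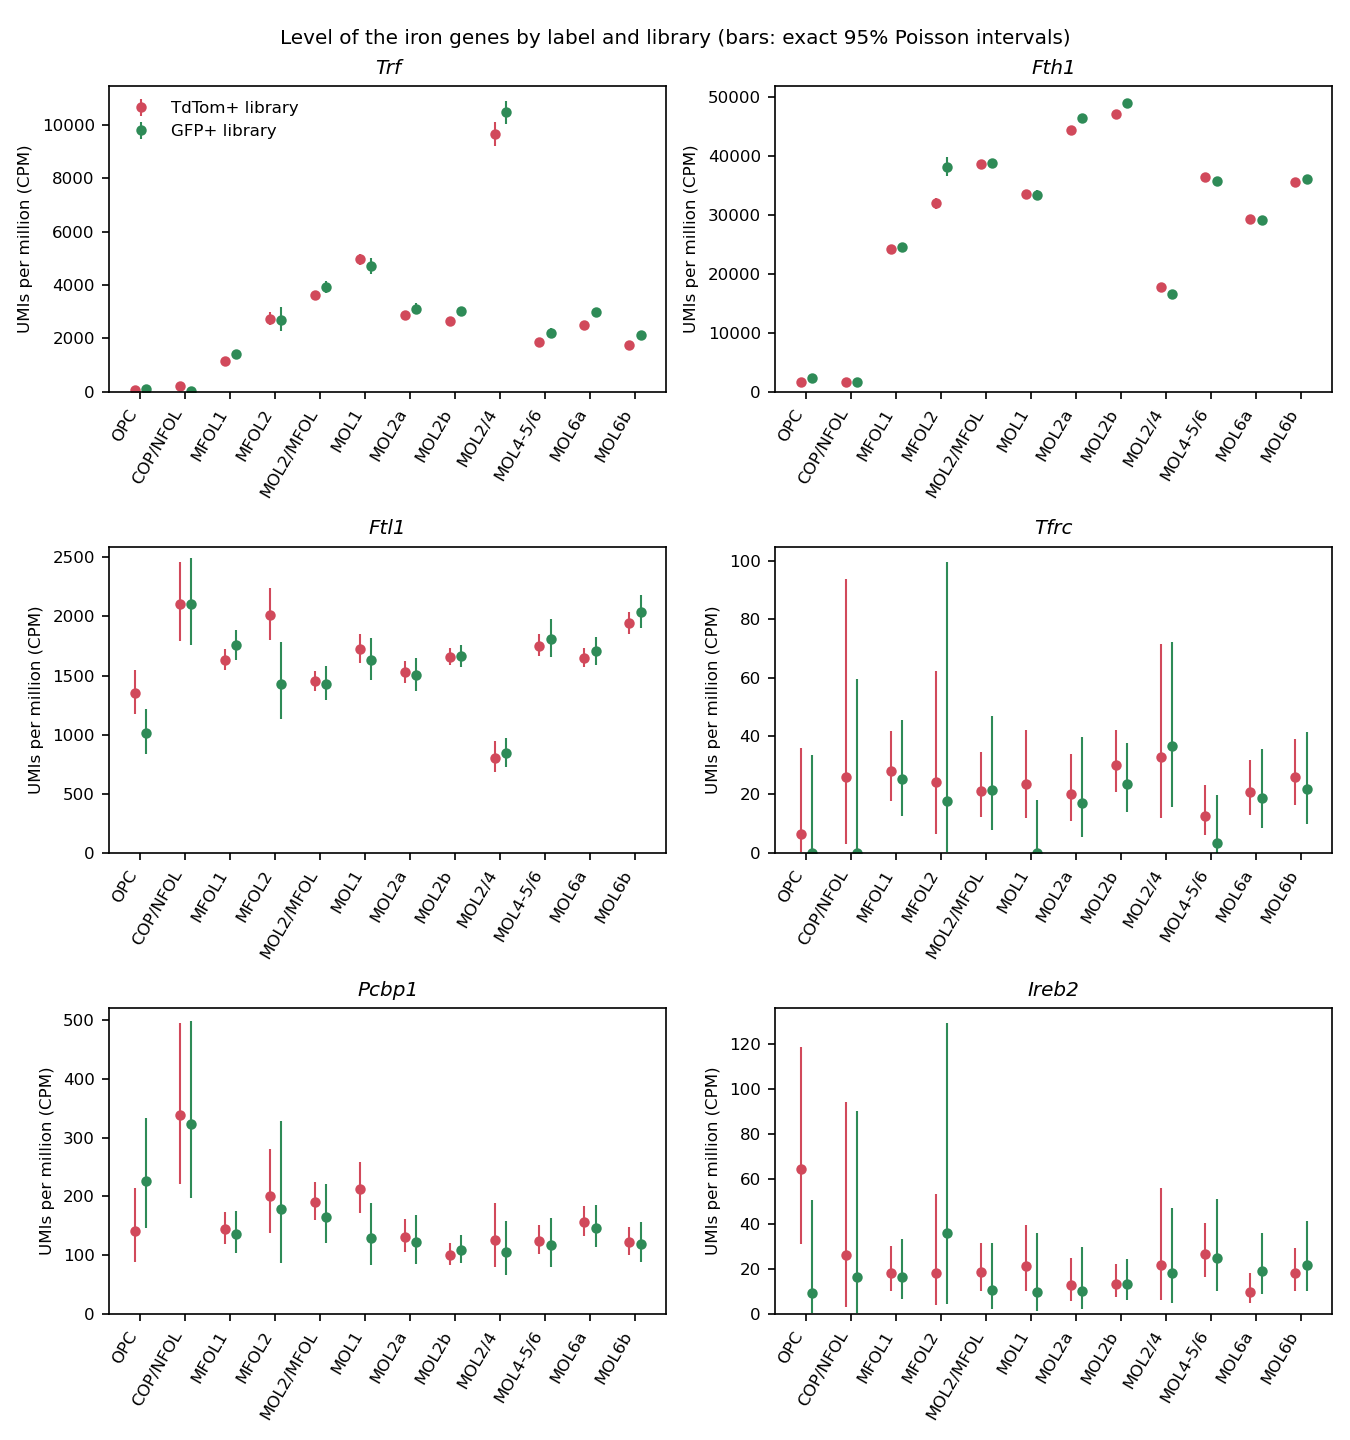
Level of each member (CPM, linear axis from 0) in the 12 labels, for the TdTom+ (red) and GFP+ (green) libraries, with exact 95% Poisson intervals as bars. Trf reaches 9655 and 10463 CPM in MOL2/4, where Fth1 and Ftl1 are at their lowest of the mature labels, and the intervals of Tfrc and Ireb2 are wide.

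Trf, the carrier, was lowest in the progenitors and spread widely among the mature labels, with the top in MOL2/4. In OPC it stood at 77.4 CPM in TdTom+ and 90.6 CPM in GFP+ cells, from 12 and 10 UMIs, and in COP/NFOL at 234 and 32.3 CPM, from 18 and 2 UMIs in 11 and 8 cells. MFOL1 held 1153 and 1421 CPM, MFOL2 2737 and 2704 CPM, and MOL2/MFOL, the label between MFOL and MOL2, 3609 and 3912 CPM. Among mature labels MOL1 held 4953 and 4709 CPM, MOL2a 2886 and 3099 CPM, MOL2b 2670 and 3010 CPM, MOL4-5/6 1868 and 2210 CPM, MOL6a 2500 and 2993 CPM and MOL6b 1752 and 2124 CPM. MOL2/4 stood apart from all of them at 9655 CPM (9210 to 10116) and 10463 CPM (10038 to 10901). In order of the level over both libraries, MOL2/4, MOL1, MOL2/MFOL and MOL2a each lay above the next with intervals that do not overlap, in each library too. MOL2a, MOL2b, MFOL2 and MOL6a overlapped with their neighbours in the order, as did MOL4-5/6 with MOL6b. OPC and COP/NFOL overlapped in the sum of the libraries and in the GFP+ library, but not in the TdTom+ library.

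Fth1, the heavy chain, was far higher in MFOL1 than in COP/NFOL and highest in MOL2a and MOL2b. OPC held 1651 and 2328 CPM and COP/NFOL 1664 and 1698 CPM, whereas MFOL1 held 24233 and 24471 CPM. MFOL2 held 31933 and 38141 CPM and MOL2/MFOL 38611 and 38753 CPM. In the mature labels Fth1 stood at 47120 and 48944 CPM in MOL2b, 44343 and 46351 CPM in MOL2a, 36395 and 35763 CPM in MOL4-5/6, 35652 and 36079 CPM in MOL6b, 33500 and 33366 CPM in MOL1 and 29284 and 29135 CPM in MOL6a. MOL2/4 was the low exception, at 17744 and 16535 CPM, below MFOL1 in both libraries. The pairs of neighbours that did not separate in the sum of both libraries were MOL4-5/6 with MOL6b, MFOL2 with MOL1, and OPC with COP/NFOL. MFOL2 and MOL1 stood in opposite orders in the libraries, with MFOL2 above in GFP+ cells only.

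Ftl1, the light chain, was nearly flat across the lineage. It stood between 1430 and 2107 CPM in COP/NFOL, in all MFOL labels and in 6 of the 7 mature labels, in either library. It was lower in OPC, at 1354 and 1014 CPM, and lowest in MOL2/4, at 805 CPM (680 to 946) and 843 CPM (725 to 973), where the GFP+ intervals of these labels overlap. The difference between highest and lowest label was 2.55-fold for Ftl1, against 28.5-fold for Fth1 and 122-fold for Trf. Within the mature labels alone these figures were 2.39-fold, 2.80-fold and 5.40-fold, each with MOL2/4 at one end.

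**Figure D2:**
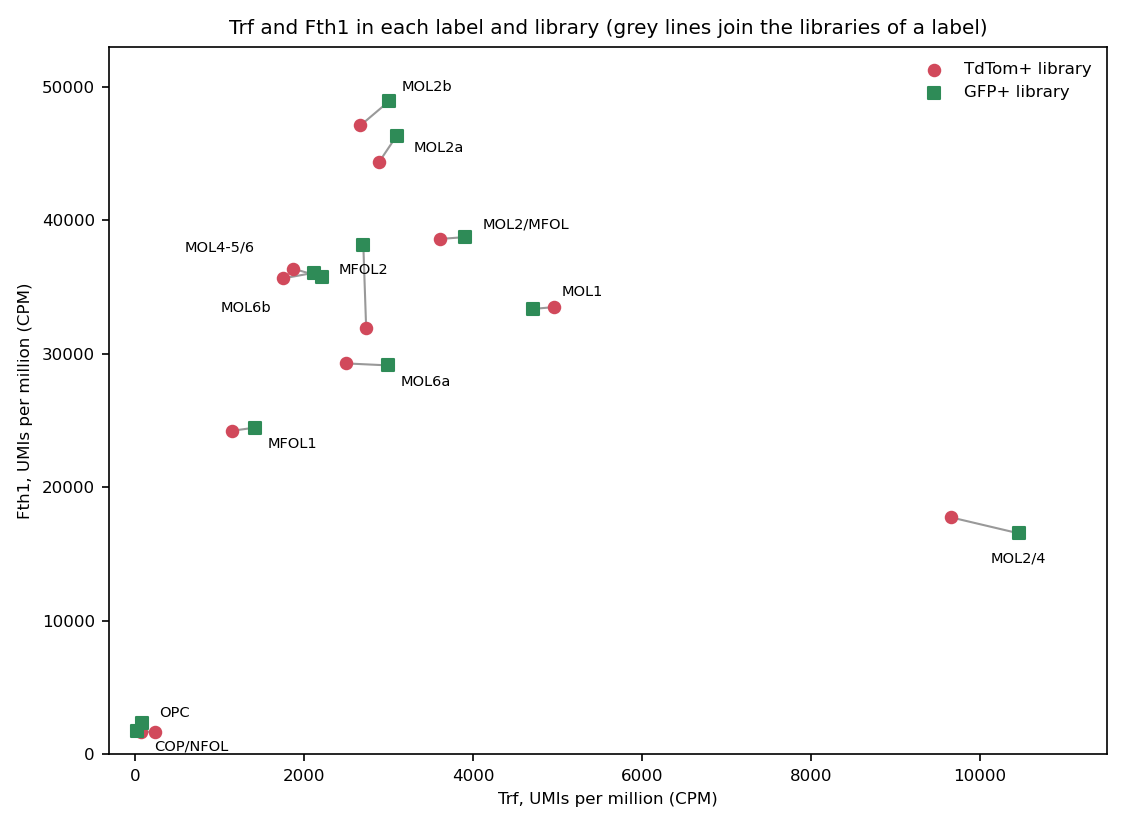
Trf against Fth1 (both CPM, linear axes) in each of the 12 labels, with a red circle for the TdTom+ and a green square for the GFP+ library and a grey line joining the libraries of a label. MOL2/4 lies alone at the right with Fth1 at 17744 and 16535 CPM, and OPC and COP/NFOL lie near the origin.

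Across labels the relation between members differed between all labels and the larger ones alone. Over the 12 labels, which share 2 libraries, Pearson's r of log2 CPM between Trf and Fth1 was 0.86, and over the 9 labels with at least 100 cells, which leaves out OPC, COP/NFOL and MFOL2, it was -0.38. Fth1 and Ftl1 had an r of 0.10 over the 12 labels and of 0.66 over those 9. Trf and Ftl1 had an r of -0.24 and of -0.81. These values describe labels and carry no test. Across single cells of 1 label and library, thinned to the same depth, Spearman's rho between Trf and Fth1 had a median of 0.05 over 21 groups of cells and a range of -0.24 to 0.47, and that between Fth1 and Ftl1 a median of 0.07. In MOL2/4 rho between Trf and Fth1 was -0.15 in the 48 TdTom+ and -0.24 in the 58 GFP+ cells kept. In MFOL1 it was 0.35 in the 165 TdTom+ and 0.22 in the 94 GFP+ cells kept, and the highest value, 0.47, came from the 40 TdTom+ cells of MFOL2. These values describe cells of shared libraries and carry no test.

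**Figure D3:**
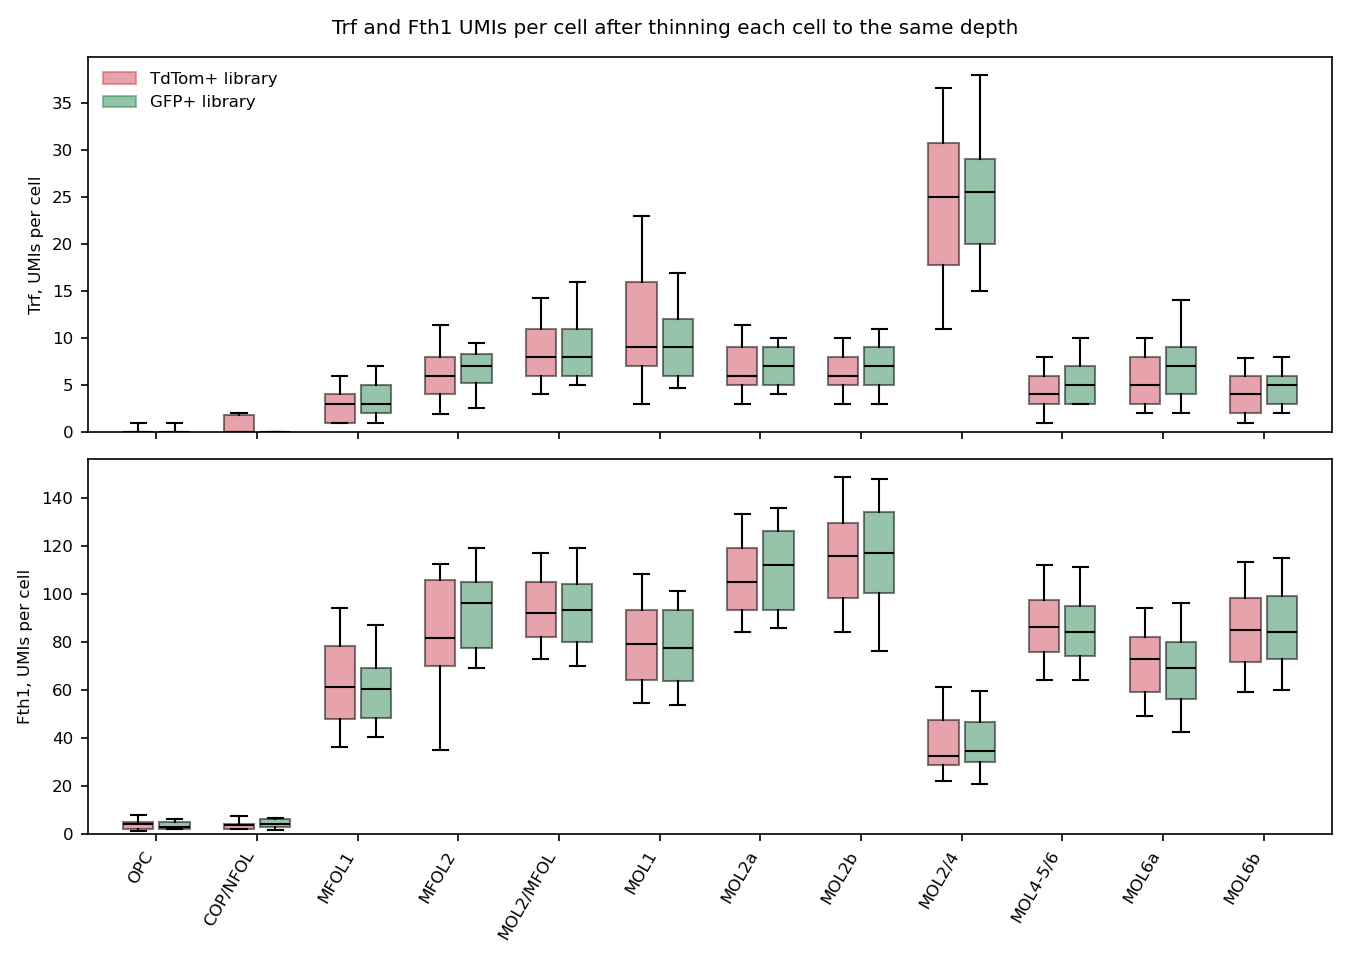
Trf (top) and Fth1 (bottom) UMIs per cell after thinning each cell to 2400 UMIs, by label and library; boxes span the quartiles with the median as a line, and whiskers the 10th and 90th percentiles. The MOL2/4 boxes of Trf, with medians of 25 and 25.5 UMIs, lie above those of every other label.

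The shift in MOL2/4 was spread over its cells. Trf had a median of 25 UMIs per thinned MOL2/4 cell in the TdTom+ and 25.5 in the GFP+ library, with a 10th percentile of 11 and 15. In the other mature labels the medians ran from 4 to 9, and the 90th percentile was 23 at most, in TdTom+ MOL1. Fth1 had medians of 32.5 and 34.5 UMIs in MOL2/4, and of 69 to 117 in the other mature labels. All 106 thinned MOL2/4 cells held Trf and Fth1. Against the other 6 mature labels summed, Trf was 3.73-fold higher (3.55 to 3.92) in the TdTom+ and 3.59-fold higher (3.42 to 3.76) in the GFP+ library. Fth1 was 2.15-fold lower (2.07 to 2.22) and 2.40-fold lower (2.32 to 2.48), and Ftl1 2.13-fold lower (1.81 to 2.52) and 2.06-fold lower (1.77 to 2.40). Pcbp1 stood at 126 and 105 CPM in MOL2/4 against 134 and 122 CPM, with intervals of the ratio that include 1. Tfrc stood at 32.9 and 36.6 CPM against 22.7 and 17.3 CPM, from 6 and 8 UMIs, and Ireb2 at 21.9 and 18.3 CPM against 16.3 and 16.5 CPM, also with intervals that include 1.

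This contrast was chosen after the levels were seen. Of 2871 genes at or above 50 CPM on average, 11.3% were at least 1.5 times higher and 20.5% at least 1.5 times lower in MOL2/4 in both libraries, with 1 and 2 of the 4 members that passed this filter among them. The median gene stood at -0.16 on the log2 scale, where Trf stood at 1.87, Fth1 at -1.18 and Ftl1 at -1.06. MOL2/4 cells had medians of 2758 and 3312 UMIs. Klk6, a marker of MOL2, stood at 712 and 2235 CPM in this label. The part of depth and of other markers in these levels was not tested.

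The heavy chain was counted somewhat less often than the light chain in COP/NFOL and far outnumbered it from MFOL1 on. Over all cells 21.0 Fth1 UMIs were counted per Ftl1 UMI in TdTom+ and 21.1 in GFP+ cells. COP/NFOL held 0.79 (0.62 to 1.00) and 0.81 (0.62 to 1.05), with intervals that include 1, and over both libraries 0.80 (0.67 to 0.95), below 1. MFOL1 held 14.8 and 13.9. The ratio was highest in the MOL2 labels, at 28.9 and 30.8 in MOL2a and 28.4 and 29.4 in MOL2b. It was lower in MOL6a, at 17.8 and 17.1, and in MOL6b, at 18.3 and 17.7. MOL2/4, where both chains were low, held 22.0 (18.7 to 26.2) and 19.6 (16.9 to 22.9), within the range of the other mature labels. In MFOL2 the ratio was 15.9 in the TdTom+ and 26.6 in the GFP+ library. The MFOL2 cell with 84 microglial UMIs held 55 of the 331 Ftl1 UMIs of its group and 17 Fth1 UMIs, and without it the TdTom+ ratio was 19.0 (16.8 to 21.5).

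Trf per Fth1 UMI set MOL2/4 further apart than either gene alone. There were 0.54 (0.51 to 0.58) and 0.63 (0.60 to 0.67) Trf UMIs per Fth1 UMI in MOL2/4. In MOL1, the next of the mature labels, there were 0.15 and 0.14. The lowest mature values were those of MOL6b, 0.049 and 0.059, with MOL4-5/6 close by at 0.051 and 0.062.

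**Figure D4:**
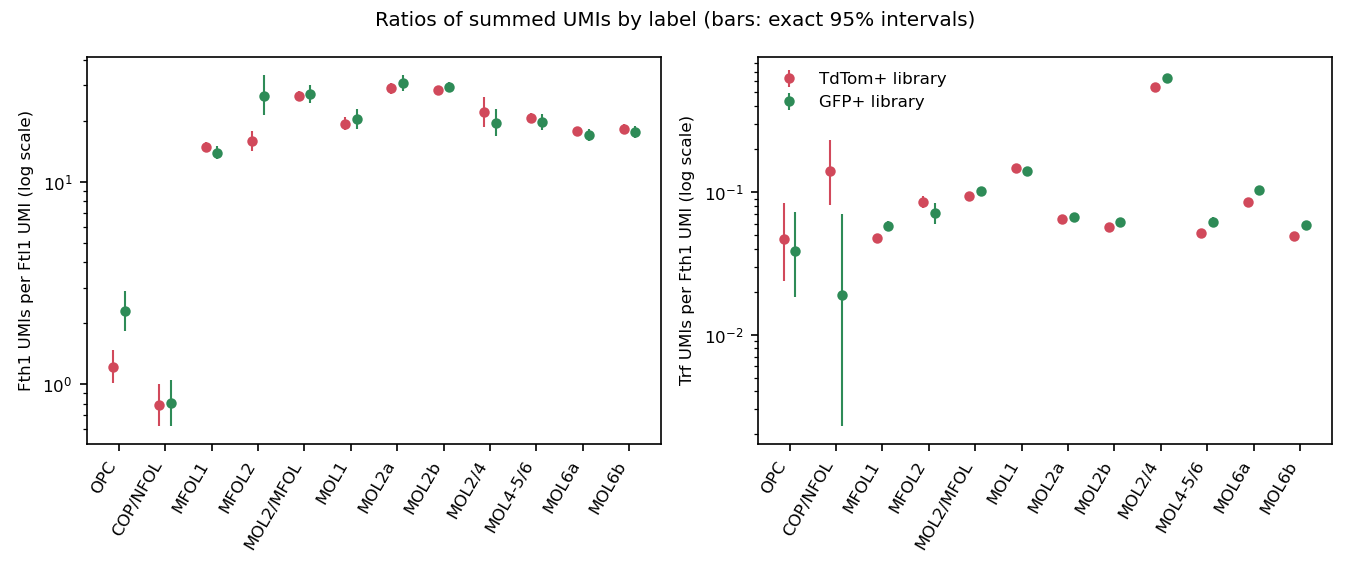
Fth1 UMIs per Ftl1 UMI (left) and Trf UMIs per Fth1 UMI (right) in the 12 labels, on log axes, for the TdTom+ (red) and GFP+ (green) libraries with exact 95% intervals as bars. The left ratio lies between 0.79 and 2.29 in OPC and COP/NFOL and at 13.9 or more from MFOL1 on, and the right one is highest in MOL2/4, at 0.54 and 0.63.

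OPC were compared with mature oligodendrocytes (7 labels summed) to see which members follow maturation. Trf and Fth1 were far lower in OPC, whereas Ftl1 and Pcbp1 stayed within 1.5 times in the TdTom+ library. The log2 ratio (pseudocount of 1 CPM) of Trf was -5.18 (-6.15 to -4.39) in the TdTom+ and -5.27 (-6.35 to -4.41) in the GFP+ library. That of Fth1 was -4.50 (-4.68 to -4.32) and -4.02 (-4.20 to -3.84). Ftl1 stood at -0.31 (-0.51 to -0.11) and -0.71 (-0.99 to -0.44), and Pcbp1 at 0.08 (-0.60 to 0.69) and 0.90, with an interval above 0. Of the 4 members above the filter, 2 were at least 1.5 times lower in OPC in both libraries and 0 higher. Among 3763 genes 15.1% were lower and 34.9% higher by this rule, and the median gene stood at 0.43. In the GFP+ library taken alone, where Ftl1 was past 1.5 times lower and Pcbp1 past 1.5 times higher as well, 19.4% of these genes were lower and 44.4% higher. Tfrc was counted once in the TdTom+ OPC and not at all in the GFP+ OPC, where 3 UMIs, the limit taken for a count of 0, would be 27.2 CPM. Ireb2 had 10 and 1 UMIs in OPC, at 64.5 CPM (30.9 to 119) and 9.06 CPM (0.23 to 50.5), against 16.5 and 16.6 CPM in mature cells.

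The low OPC levels were set beside those of Mag, Mbp, Mog and Ptgds, messengers that were far higher in mature cells. The Fth1 level of OPC was 4.42% of that of mature cells in the TdTom+ and 6.16% in the GFP+ library, and that of Trf was 2.73% and 2.56%. For Mag the figures were 3.24% and 5.86%, for Mbp 4.99% and 6.84%, for Ptgds 4.39% and 4.61%, and for Mog 3.91% in the GFP+ library, with 19.4 against 1546 CPM in the TdTom+ library. Fth1 and Trf in OPC lay within or below the range of these messengers. Of thinned OPC, 95.1% and 93.3% held a Fth1 UMI. Whether OPC express Fth1 or Trf, and the source of these UMIs, was not tested. Ftl1, at 80.6% and 61.1%, stood far above the range of these messengers. COP/NFOL differed from OPC in this respect: their Mbp was already at 14213 and 6809 CPM, but Fth1 stood at 1664 and 1698 CPM.

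A single cell carried much of the GFP+ OPC value. It held 111 Fth1 UMIs besides 5 Pdgfra UMIs, whereas the next GFP+ OPC held 10 Fth1 UMIs. Without it Fth1 in GFP+ OPC was 1399 CPM rather than 2328, and Trf 47.9 CPM rather than 90.6. The log2 ratio against mature cells was then -4.75 for Fth1 and -6.18 for Trf in that library, and the Fth1 to Ftl1 ratio in GFP+ OPC was 1.39 (1.07 to 1.80) instead of 2.29 (1.83 to 2.89), against 1.22 (1.01 to 1.47) in TdTom+ OPC.

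MOL5/6 (MOL4-5/6, MOL6a and MOL6b summed) were compared with MOL2 (MOL2a, MOL2b and MOL2/4 summed), the mature populations whose places in the tissue the study contrasts. By in situ hybridization the study found Klk6+ MOL2 almost absent in the corpus callosum, the tissue used here. Klk6 stood at 230 and 444 CPM in MOL2a and at 179 and 447 CPM in MOL2b. Trf was lower in MOL5/6, at 2067 against 3381 CPM in the TdTom+ and 2499 against 4311 CPM in GFP+ cells, which gives log2 ratios of -0.71 (-0.76 to -0.66) and -0.79 (-0.85 to -0.72). Fth1 stood at 33482 against 43482 CPM and at 33173 against 42775 CPM, and Ftl1 at 1777 against 1538 CPM and 1850 against 1487 CPM. Trf was the 1 member of the 4 above 50 CPM that was at least 1.5 times lower in both libraries, a call met by 4.46% of 2894 genes, and 0 members were higher, against 2.94%. The median gene stood at 0.04. With MOL2a and MOL2b alone as MOL2 the log2 ratio of Trf was -0.41 and -0.28, within the 1.5 times, and 0 members were past it, against 4.55% of genes lower and 3.14% higher. With MOL2/4 alone it was -2.22 and -2.07, and Fth1 and Ftl1, at 0.92 and 1.00 and at 1.14 and 1.13, were then higher in MOL5/6, so the direction of Fth1 turned with the label taken as MOL2. By that definition 12.6% of genes were lower and 21.0% higher.

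The libraries were compared to see whether dorsally and ventrally derived cells differ in these genes. Trf was the only member whose interval over all cells did not include 0, at a log2 ratio of TdTom+ over GFP+ of -0.25 (-0.28 to -0.22), or 1.19-fold higher in GFP+ cells. Fth1 stood at 0.006 (-0.004 to 0.016) and Ftl1 at 0.02 (-0.03 to 0.06). Pcbp1 stood at 0.12 (-0.04 to 0.28), Tfrc at 0.27 (-0.13 to 0.72) and Ireb2 at 0.15 (-0.30 to 0.63). None of the 4 members above the filter was 25% higher in either library, as 2.33% of 2958 genes were.

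Within labels the ratio of Trf was negative in 9 of the 12, and in 7 of these the interval lay below 0. These were MFOL1 at -0.30, MOL6b at -0.28, MOL6a at -0.26, MOL4-5/6 at -0.24, MOL2b at -0.17, and MOL2/MFOL and MOL2/4 at -0.12 each. MOL1 stood at 0.07 (-0.04 to 0.18). COP/NFOL was the exception with an interval above 0, at 2.82 (0.79 to 6.01), from 18 and 2 UMIs. MOL2/4 made up 3.16% (2.42 to 4.04%) of the TdTom+ and 6.62% (5.12 to 8.39%) of the GFP+ cells, and held 9.39% and 20.4% of all Trf UMIs. With both libraries given the same share of each label the ratio was -0.18, and without the MOL2/4 cells -0.12. For Fth1 the interval lay below 0 in OPC (-0.50), MFOL2 (-0.26), MOL2a (-0.06) and MOL2b (-0.05) and above it in MOL2/4 (0.10). Without the single cell named above the OPC value was 0.24 (-0.06 to 0.54). Over thinned TdTom+ and GFP+ cells the variance of Fth1 was 3.87 and 4.13 times its mean in MOL2a. In MOL2b it was 5.93 and 6.94 times its mean, so the Fth1 intervals of these labels are too narrow. Ftl1 was higher in TdTom+ OPC, at 0.42 (0.08 to 0.76), and in TdTom+ MFOL2, at 0.49 (0.13 to 0.86), where the level fell from 2009 to 1718 CPM without the cell with microglial UMIs, against 1433 CPM in the GFP+ library.

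**Figure D5:**
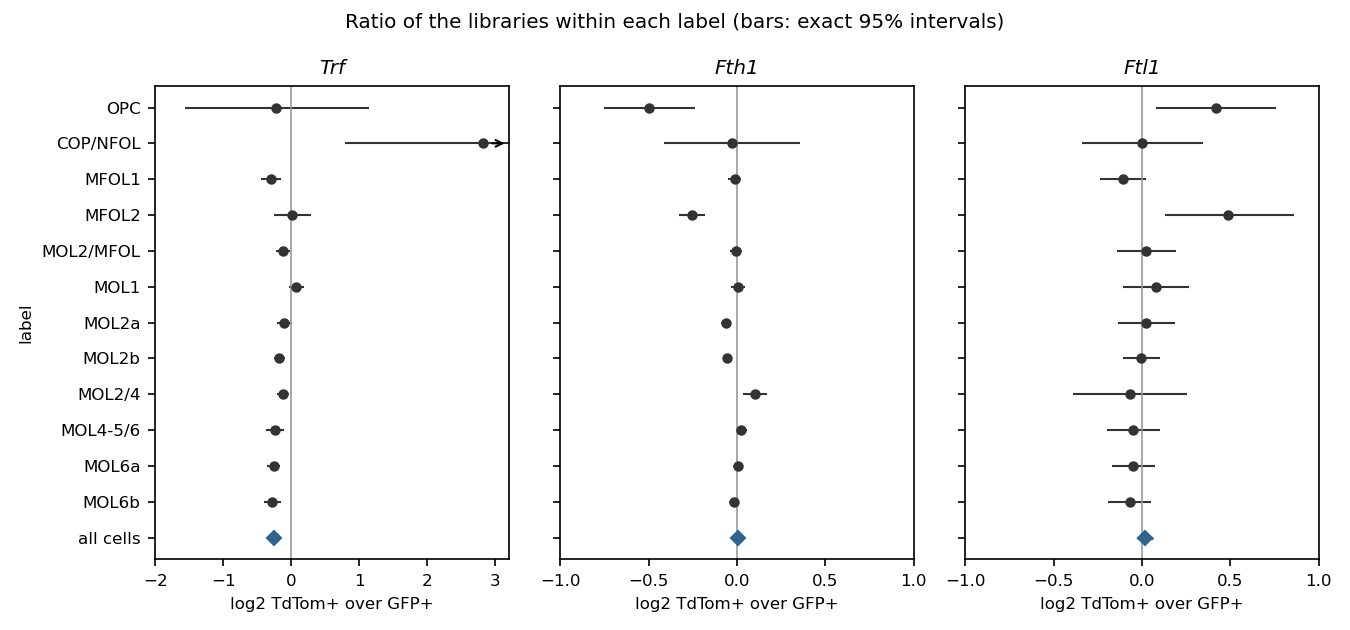
Log2 ratio of TdTom+ over GFP+ CPM within each label (black) and over all cells (blue diamond) for Trf, Fth1 and Ftl1, with exact 95% intervals as bars; the axis of Trf is wider and the bar of COP/NFOL runs past it to 6.01. Trf lies left of 0 in 9 of 12 labels, whereas most Fth1 and Ftl1 intervals lie on or near 0.

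Tfrc, the receptor, was too rare to separate neighbouring labels. Its level over both libraries ran from 10.2 CPM in MOL4-5/6 to 34.9 CPM in MOL2/4 among the mature labels, and no neighbours in the order of the 12 labels separated. The interval of MOL4-5/6 (5.10 to 18.3 CPM) lay below those of MOL2/4 (19.1 to 58.6), MOL2b (20.6 to 36.2) and MFOL1 (18.7 to 37.8). MOL1 held 11 Tfrc UMIs in TdTom+ cells (23.6 CPM, 11.8 to 42.2) and 0 in GFP+ cells, where 3 UMIs would be 14.8 CPM. Pcbp1, the chaperone, was highest in COP/NFOL, at 338 CPM (221 to 495) and 323 CPM (198 to 500), and lay between 100 and 226 CPM in all other labels. It was 212 CPM (173 to 258) in TdTom+ MOL1 and 128 CPM (83.9 to 188) in GFP+ MOL1, a log2 ratio of 0.72 (0.09 to 1.41). Ireb2, the sensor, ranged from 9.06 to 64.5 CPM, with at most 21 UMIs in any label and library, and no neighbouring labels separated.

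The genes whose log2 CPM followed each member most closely over the 12 labels were taken from 3141 genes that averaged 50 CPM or more. For Trf they were Apod (r = 0.99), Grhpr (0.98) and Itgb4 (0.98), and all 3 were highest in MOL2/4 and lowest in OPC. Apod, apolipoprotein D, reached 8581 CPM in MOL2/4 and kept an r of 0.96 over the 9 labels with at least 100 cells. For Fth1 they were Ppp1r14a, Pip4k2a and Pla2g16 (0.99 each), all highest in MOL2a and lowest in COP/NFOL. For Ftl1 they included Dusp7 (0.95) and Wdr89 (0.95), both highest in COP/NFOL and lowest in MOL2/4. For Pcbp1 they were Psmd12 (0.92), Ywhah (0.91) and Strap (0.91), all highest in COP/NFOL. For Tfrc they included Aatk (0.91) and Fa2h (0.91), and for Ireb2 they were Arcn1 (0.89), Ptbp2 (0.88) and Pcdh10 (0.85). The r of Arcn1 with Ireb2 was 0.32 in the TdTom+ and -0.52 in the GFP+ library taken alone, and that of Pcdh10 0.73 and -0.39. The points share their libraries and the sum to which CPM refers, and no p is given.

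A list of 55 other genes of iron handling was set beside the members, of which 38 were measured and 19 reached 50 CPM in a label with at least 50 cells. None of the 14 of them above the filter in the libraries was 25% higher in either origin (2.33% of all genes). Between OPC and mature cells 17 could be compared, with 4 higher and 5 lower in OPC, where 34.9% of all genes were higher and 15.1% lower, and a median log2 ratio of 0.04, against 0.43 for all genes. Of the 4 higher, Lrp1, Sfxn1 and Epas1 were below 50 CPM in mature cells and passed the filter only through OPC. Their direction was thus fixed by the filter, which was the same for all genes. The part of the astrocyte and neuronal markers counted in OPC in these values was not tested. The higher ones were Lrp1, a receptor for heme bound to hemopexin, at 709 and 788 CPM in OPC against 1.16 and 1.89 CPM in mature cells, Sfxn1, a mitochondrial carrier, at 116 and 127 CPM against 1.55 and 2.27 CPM, Epas1, a hypoxia factor whose messenger carries an iron responsive element, at 161 and 181 CPM against 32.2 and 27.2 CPM, and Isca2, which acts in iron-sulfur cluster assembly. The lower ones were App, which binds the iron exporter, at 129 and 199 CPM against 1088 and 1108 CPM, Slc48a1, a heme transporter, at 232 and 226 CPM against 1246 and 1335 CPM, Gpx4, which removes lipid peroxides, at 252 and 172 CPM against 967 and 945 CPM, and Pcbp4 and Fech, the enzyme that puts iron into heme. Cp, a ferroxidase, was counted in OPC at 64.5 and 36.2 CPM and in mature cells at 0.39 and 0 CPM, and Pcbp3 at 25.8 and 99.6 CPM against 9.50 and 6.42 CPM.

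Between MOL5/6 and MOL2 none of 14 genes of the list was past 1.5 times in both libraries, as 2.94% of all genes were upwards and 4.46% downwards. In MOL2/4 against the other mature labels 4 of 13 were lower and 0 higher, with the background of 20.5% and 11.3% given above. These were Bola3, an iron-sulfur cluster protein, at 32.9 and 18.3 CPM against 89.9 and 101 CPM, Cyb5a, a heme protein, at 142 and 82.4 CPM against 229 and 252 CPM, Pcbp2, a second ferritin chaperone, at 164 and 151 CPM against 338 and 350 CPM, and Gpx4 at 531 and 467 CPM against 983 and 988 CPM. App, at 1824 and 1557 CPM against 1061 and 1068 CPM, and Slc48a1, at 1681 and 2051 CPM against 1230 and 1271 CPM, were highest in MOL2/4 of the labels with at least 50 cells but did not reach 1.5 times in both libraries. Fbxl5, the iron sensing subunit of the ligase that degrades IRP2, stood at 71.2 and 73.3 CPM in MOL2/4 against 107 and 104 CPM. The remaining named genes of the list, Iscu, Glrx5, Cisd1 and Hmox2, were within 1.5 times in at least 1 library in each of these label comparisons.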

How the data were processed

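Single-cell libraries (10x Genomics 3′ version 2) of TdTom+ and GFP+ OL lineage cells from the P60 corpus callosum were used, the tissue of 2 mice being pooled. The submitters' processing notes name Cell Ranger 2.1.1 and mm10, and the study's methods name STAR without a version. As deposited, the matrix holds a signal, each gene's fraction of the cell's UMI count, which the authors computed after removing control features. Multiplying by the reciprocal of the smallest fraction of the cell gave whole reads for 100% of values above 0, within 0.01. The deposited counts of total UMIs, genes and control features per cell were read as a check, and the UMIs removed equalled the control features in 94.0% of cells. The library of each cell and the authors' labels were read from the same table, and its other 34 columns were not used.

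UMIs were summed per library and label and given per 1000000 UMIs (CPM). Sums carry exact Poisson intervals, shares Clopper-Pearson intervals, and ratios an interval conditional on both sums, all at 95%. Ratios of CPM are on the log2 scale with a pseudocount of 1 CPM, but their intervals are without it. Differences of 25% either way between libraries and of 1.5 in both libraries between labels were used to count genes, on average at or above 50 CPM. With no replicates no test was made. For shares of cells, 2400 UMIs per cell (the 10th percentile, to the lower 100) were drawn without replacement (seed 1). Ratios and their intervals were tried on simulated Poisson counts without spread between cells, which cannot show how the intervals hold for real cells. Thinning was tried on a part of the real cells. The members and gene lists were chosen with earlier results of these data known. The genes named are the 6 members, the 3 genes most like each, and the genes of the iron handling list with at least 50 CPM in a label with at least 50 cells; some of these results are not reported here. Of that list 17 genes were not analysed here, nor were pericyte and choroid plexus markers. Of ependymal and red blood cell markers, 1 of 3 and 2 of 5 were measured, at 43.5 and 38.5 CPM and at 16.3 and 16.7 CPM. Doublets were not called anew, and markers of OPC, MOL2 and MOL5/6 were measured in full.

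The alternatives were the mean of each cell's CPM, median-of-ratios size factors, standardized label composition, a pseudocount of 10 CPM, filters of none and 200 CPM, cells recounted at 200 to 3000 genes and under 5% mitochondrial UMIs, cells with 3 markers of another type or with most microglial UMIs left out, each library alone, merged labels, other definitions of MOL2 and of mature cells, no thinning, 500 UMIs, 2 UMIs, labels with at least 100 cells and Spearman's rho. Leaving out MOL2/4 from the libraries or from MOL2, and leaving out the OPC cell with most Fth1 UMIs, were chosen after seeing the data. Computations used scipy 1.17.1, matplotlib 3.10.9 and pandas 2.3.3 under Python 3.11.15 with numpy 2.4.6.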

Additional observations from a re-analysis of the deposited data

Results flagged for a closer look

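Ireb2 in OPC against mature oligodendrocytes pointed in opposite directions in the libraries, at a log2 ratio of 1.91 in the TdTom+ and -0.81 in the GFP+ library. The values rest on 10 and 1 UMIs in 48 and 35 cells, and the difference between the libraries was not tested.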

How the results depend on the processing

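No paired analysis was possible because each origin had a single library. The log2 ratio of Trf between the libraries, -0.25, was -0.18 under standardized composition and -0.12 with MOL2/4 cells left out, and stayed within its interval under the other 6 alternatives. Of the members called, 2 in OPC against mature cells, the GFP+ library alone gave 4, adding Ftl1 and Pcbp1, where the shares of all genes called rose from 15.1% to 19.4% lower and from 34.9% to 44.4% higher. The 1 member called in MOL5/6 against MOL2 became 3 with MOL2/4 alone as MOL2 and 0 with MOL2a and MOL2b alone, where 12.6% and 4.55% of all genes were lower and 21.0% and 3.14% higher. The largest fold among mature labels, 5.40, fell to 2.22 with the authors' merged labels, between MOL1 and MOL5/6. Of the 18 genes most like the members, 0 remained with the labels of at least 100 cells, 5 with the TdTom+ and 2 with the GFP+ library alone, and 3 by Spearman's rho, so those lists describe only the setting used. The Fth1 to Ftl1 ratio over all cells lay between 21.0 and 21.3 under the 3 alternatives run, but single cells moved it beyond its interval in GFP+ OPC (2.29 to 1.39) and in TdTom+ MFOL2 (15.9 to 19.0). The largest gap in shares of cells between the libraries, 3.21 points for Pcbp1, was 1.43 without thinning, but belonged to Trf (2.63, higher in GFP+ cells) at 500 UMIs and to Ftl1 (2.24) at 2 UMIs, and Pcbp1 stood at -0.09 points at 500 UMIs. Leaving out the 92 cells with 3 markers of another type removed 37 OPC, and the mean log2 ratio of Trf in OPC went from -5.23 to -6.16. That of Ireb2, whose libraries pointed in opposite directions, went from 0.55 to 1.09. The ratio of Tfrc in OPC, from 1 UMI in TdTom+ and 0 in GFP+ cells, depends on the pseudocount. With all cells it was -3.00 at 1 CPM and -1.27 at 10 CPM. Of the astrocyte list, Slc1a2, Atp1b2, Slc1a3, Aldoc, Clu and Aqp4 were counted in OPC, and Gfap and Gja1 were at 0. The share of all genes 25% higher in either library, 2.33%, was 21.9% without a filter and 1.65% at 200 CPM. Of the 48 library ratios of single members over all cells, 43 were counted as unmoved and 5 as moved. Of the 96 label ratios under settings able to move them, 81 and 15 were, and 0 called values reversed. Moved does not always mean beyond counting error: Trf in OPC went from -5.23 to -5.08 at a pseudocount of 10 CPM, inside the intervals of both libraries. Fth1 in MOL5/6 against MOL2 was not called, and went from -0.37 to 0.96 with MOL2/4 alone as MOL2. Depth limits Tfrc and Ireb2 in every label, and the number of cells, 11 and 8, limits all members in COP/NFOL.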
